A study of Mus musculus with 288 samples.

Results

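Alveolar and club cells line the distal lung and airways, and the 10 genes followed here are those by which their secretory work is usually traced: Sftpa1, Sftpb, Sftpc, Sftpd, Abca3, Lamp3, Napsa, Ager, Scgb1a1 and Scgb3a2. They were chosen by gene symbol from what is known of the lung epithelium, after earlier results of these data had been seen. All 10 were found among the 35904 genes quantified. Ager, a membrane receptor of alveolar type 1 cells, is the member that is not secreted and has no part in secretion. Male wild-type C57BL/6J mice, 8 weeks old, breathed either normal air (normoxia) or air that swung between 21% and 8% oxygen (intermittent hypoxia, IH) over 7 days. Per the study's methods, IH was given in the light, inactive phase, and every mouse had normal oxygen in the dark, active phase. All mice then spent 2 days in darkness at normal oxygen, so the IH samples were taken after the exposure had ended. Lung, liver, kidney, muscle, heart and cerebellum were collected on the second of these days every 3 h, at 8 times from 1:30 to 22:30 h. Each tissue gave 24 normoxia and 24 IH libraries, 3 mice at each time and treatment, numbered 1 to 3 in the labels. Several organs came from each mouse, and the labels do not tie libraries to mice. Levels are in TPM, the abundance of a gene's transcripts as a share of the library, corrected for transcript length, from which sequencing depth cannot be read.

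Alveolar type 2 cells make surfactant, the film of phospholipid and protein that lowers surface tension and keeps alveoli open. They load it into lamellar bodies, whose lipid pump is ABCA3, and release it together with the surfactant proteins, of which SP-B and SP-C spread the film while SP-A and SP-D are collectins of innate defence. Club cells of the airways secrete secretoglobins, small proteins of the airway lining fluid, and flat alveolar type 1 cells carry out gas exchange and are marked by AGER.

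In the mouse genome (GRCm38, GENCODE annotation) Sftpa1 (chr14:41131782-41136452, + strand) and Sftpd (chr14:41172214-41185149, - strand), which encode the collectins SP-A and SP-D, lie 35761 bases apart on 1 chromosome. Sftpc, the gene of the hydrophobic protein SP-C, lies elsewhere on it (chr14:70520949-70524081, - strand), and Sftpb, the gene of SP-B, lies at chr6:72304610-72314371 (+ strand). Abca3 (chr17:24351950-24410201, + strand) overlaps 2 short noncoding genes on the opposite strand, Gm25618 and D330041H03Rik. Napsa (chr7:44572380-44586862, + strand), the gene of the protease napsin A, overlaps an antisense gene, Gm15396. The library kit kept strand, but the sources used here do not say whether quantification used it, so the levels of Abca3 and Napsa may hold reads of these partners. Lamp3 (chr16:19653378-19706375, - strand), Ager (chr17:34597862-34600936, + strand) and Scgb1a1 (chr19:9083636-9087958, - strand) overlapped no other annotated gene.

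The promoters of Sftpb and Sftpa1 were picked because they hold the letters CTCAAG, a core recognised by NKX2-1, a transcription factor of the lung epithelium. Both genes are among the 9 of 10 members whose direction after IH depended on the fit, as given below. RefSeq promoters of 300 bases (250 before the start and 50 after it) were at hand for 5 of the 10 members, Sftpb, Sftpa1, Lamp3, Abca3 and Ager. They were searched on both strands for CTCAAG, the forkhead core TGTTTAC, the hypoxia response core ACGTG and the nuclear receptor core AGGTCA. Below are the bases before the start in GRCm38.p6, chr6:72304360-72304609 on the + strand for Sftpb and chr14:41131538-41131781 on the + strand for Sftpa1, with CTCAAG and AGGTCA, or its complement TGACCT, in capitals.
Sftpb: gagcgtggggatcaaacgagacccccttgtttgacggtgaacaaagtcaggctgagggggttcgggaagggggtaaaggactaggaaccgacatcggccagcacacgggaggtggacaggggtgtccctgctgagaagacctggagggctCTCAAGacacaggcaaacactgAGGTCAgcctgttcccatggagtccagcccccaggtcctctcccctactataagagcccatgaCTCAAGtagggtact
Sftpa1: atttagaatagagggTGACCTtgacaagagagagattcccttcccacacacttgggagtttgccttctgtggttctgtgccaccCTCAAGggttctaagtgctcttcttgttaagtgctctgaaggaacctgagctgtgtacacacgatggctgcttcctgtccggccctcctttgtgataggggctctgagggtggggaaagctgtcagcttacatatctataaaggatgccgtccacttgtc
Distances are from the RefSeq start, which for Sftpa1 lies 6 bases beyond the letters shown, since the GENCODE start comes earlier. CTCAAG began 100 and 15 bases before the Sftpb start and 166 bases before that of Sftpa1. AGGTCA began 78 bases before the Sftpb start and, on the opposite strand, 235 bases before that of Sftpa1. The Lamp3 promoter held TGTTTAC 92 bases before its start, and those of Abca3 and Ager held none of the 4 motifs. Matches of this kind are common, and they are a description of letters only. Of the 32851 promoters of the same length in the table, 15.9% held CTCAAG, 16.3% AGGTCA, 3.65% TGTTTAC and 19.6% ACGTG.

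In the normoxic lung the 10 members together made up between 14.0% and 27.3% of all TPM (median 17.6%), and Scgb1a1 and Sftpc were the most abundant and the next most abundant of all genes. Scgb1a1 averaged 127597 ± 24595 TPM (SD, n = 24) and Sftpc 36761 ± 3108 TPM. Levels then fell away through Sftpb (4050 ± 729 TPM), Sftpa1 (3317 ± 353 TPM), Scgb3a2 (2924 ± 825 TPM) and Ager (2153 ± 291 TPM). Neighbours in this order, from Sftpb to Ager, differed by no more than about the spread between libraries. Sftpd (906 ± 64.0 TPM), Napsa (293 ± 41.2 TPM), Lamp3 (198 ± 28.7 TPM) and Abca3 (110 ± 22.1 TPM) came last, and their means were further apart than their SDs.

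Of the 10 members, 8 were lung genes by a wide margin, and Napsa and Abca3 were shared with the kidney. Napsa was higher in the kidney, at 1072 ± 202 TPM (SD, n = 24, normoxia), than in the lung, a 3.66-fold difference with no overlap of libraries: the lowest normoxic kidney library held 578 TPM and the highest normoxic lung library 369 TPM. Napsin A is a protease of both tissues. In the other tissues Napsa averaged 3.94 ± 1.87 TPM in cerebellum, 2.01 ± 0.584 in muscle, 1.5 ± 0.943 in heart and 1.41 ± 1.16 in liver, and these neighbours overlapped. Abca3 averaged 63.3 ± 18.3 TPM in kidney, below the lowest lung library (73.1 TPM), but the groups overlapped, since the highest kidney library (108 TPM) exceeded the lung median of 106 TPM. Abca3 then fell to 11.5 ± 3.82 TPM in liver, 8.84 ± 3.31 in cerebellum, 5.71 ± 1.33 in muscle and 3.60 ± 1.14 in heart. For the other members the lung mean was between 61.9-fold (Scgb3a2) and 5684-fold (Sftpb) that of the next tissue. Some of these folds rested on single heart libraries, left out here after seeing the data. Without normoxia replicate 2 at 19:30 h the fold was 127 for Scgb3a2 (heart mean 23.03 in place of 47.2 TPM), 1126 in place of 679 for Scgb1a1 and 4361 in place of 2576 for Sftpa1, and without normoxia replicate 3 at 13:30 h it was 9538 in place of 4236 for Sftpc, then the highest, and 6648 for Sftpb. For each of these 8 members, the lowest normoxic lung library lay above the highest normoxic library of any other tissue; the closest approach was that of Scgb3a2, at 2214 against 604 TPM.

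**Figure D1:**
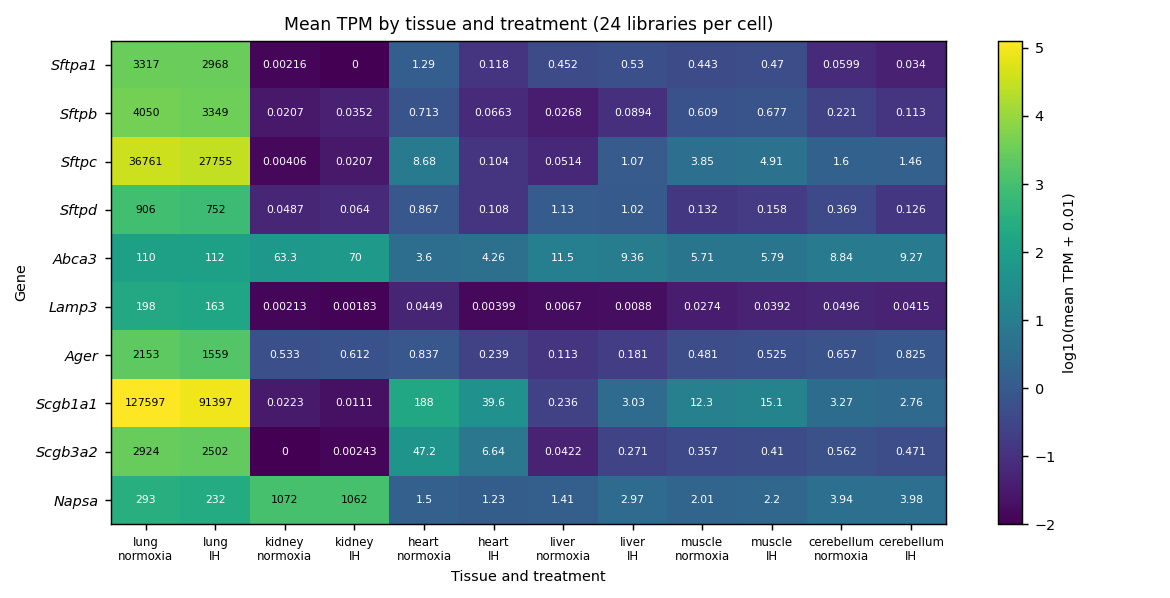
Mean TPM (number in each cell, colour on a log10 scale with 0.01 added) of the 10 genes (vertical axis) by tissue and treatment (horizontal axis), 24 libraries per cell. Napsa is highest in kidney (1072 TPM in normoxia against 293 TPM in lung), Abca3 reaches 63.3 TPM there, and the other genes are far higher in lung than elsewhere.

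The low means outside the lung hid libraries with much higher values. Of the 240 libraries of the other tissues, 18 held at least 10 TPM of Scgb1a1 or Sftpc: 7 of heart, 7 of muscle, 2 of cerebellum, 2 of liver and 0 of kidney. In muscle the ratio of Scgb1a1 to Sftpc in these libraries was 2.95 to 3.62, beside a median of 3.29 in normoxic lung, and the highest, normoxia replicate 2 at 22:30 h, held 218 TPM of Scgb1a1 and 66.7 TPM of Sftpc. Muscle libraries of this kind thus held Scgb1a1 and Sftpc in the proportion of the lung. Heart libraries differed from these, with a ratio of Scgb3a2 to Scgb1a1 from 0.153 to 0.317, against 0.0233 to 0.0370 in the muscle libraries. In lung this ratio ran from 0.0182 to 0.0289 in normoxia and from 0.0136 to 0.105 after IH. It was 0.197 and 0.141 in the 2 cerebellum libraries and 0.0736 and 0.0508 in the 2 liver libraries. The highest heart library, normoxia replicate 2 at 19:30 h, held 1905 TPM of Scgb1a1, 604 TPM of Scgb3a2 and 74.4 TPM of Sftpc. Where this RNA came from was not tested.

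Lung libraries also differed in ways that the treatment groups do not capture. In normoxia, replicate 2 at 1:30 h stood apart, with the highest Scgb1a1 (229994 TPM) and Scgb3a2 (6216 TPM) and the lowest Ager (1084 TPM). It was also the normoxic library with the most genes above 0 TPM (25400, against a median of 22690.5). After IH more genes were detected, from 23622 to 28284 (median 24788.5) against 21746 to 25400 in normoxia. Within the IH group replicate 3 held 23622 to 24771 genes (median 24122), replicate 1 23833 to 27557 (median 26470.5) and replicate 2 24585 to 28284 (median 25529.5), ranges that overlap. The members' share of TPM moved with them, from 3.76% to 21.0% over the IH libraries (median 15.2%) but from 15.1% to 19.4% within replicate 3.

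**Figure D2:**
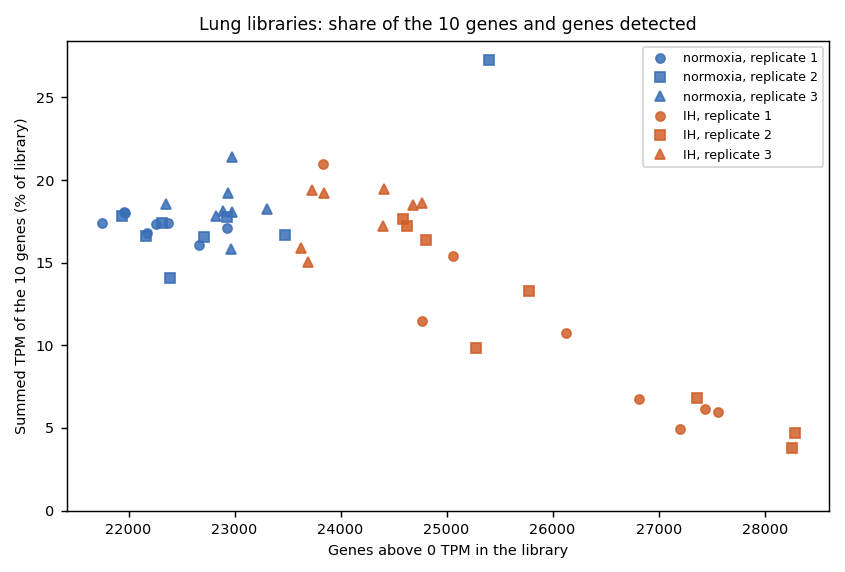
Summed TPM of the 10 genes as a percentage of the library (vertical axis) against the number of genes above 0 TPM (horizontal axis) in the 48 lung libraries; each point is a library, colour marks treatment and shape the replicate number. IH libraries with more genes detected hold a smaller share, down to 3.76% at 28257 genes, whereas the 8 IH libraries of replicate 3 (15.1% to 19.4%) lie at the level of normoxia.

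After IH all 10 members had lower mean 24-hour expression in the lung on the scaled log2 values, and 7 of them were changed, that is, past an adjusted p of 0.05 and changed by at least 1.5-fold. The changed members were Scgb1a1, Ager, Sftpc, Sftpb, Napsa, Sftpd and Lamp3, all lower, and 0 were higher. Of all 15426 genes tested by limma 2079 were changed, 4.39% of the genes tested being lower and 9.09% higher. At an adjusted p of 0.05 alone all 10 members were lower, where 70.4% of the genes tested passed, 41.5% lower and 28.9% higher. In whole tissue, fewer cells of a type and less RNA per cell cannot be told apart. The size of these falls depended on scaling. Scaled by the median of ratios, the median change of all genes was -0.08 on the log2 scale, and it was 0.21 on TPM as deposited, a shift of 0.28. Relative to the median gene the members' falls were nearly alike on both scales, for example -0.71 and -0.69 for Sftpc and -0.93 and -0.91 for Scgb1a1. That likeness was fixed beforehand, since the scales differ by a factor per library that moves all genes nearly alike. On TPM as deposited 98.0% of changed genes were higher, against 67.4% on scaled values; 1 member, Scgb1a1, was changed and lower (0.376% of all genes), and 8 were lower at an adjusted p of 0.05 alone (10.7% of all genes). Sftpa1 and Abca3 did not pass there. With quantile normalization the median change of all genes was -0.05, and 642 genes were changed and lower and 1219 changed and higher. Of the members 0 were changed in that fit, and 6 were lower at an adjusted p of 0.05 alone. The share of all genes lower at that cutoff alone is not given here for that fit, so the 6 are no result about the members.

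**Figure D3:**
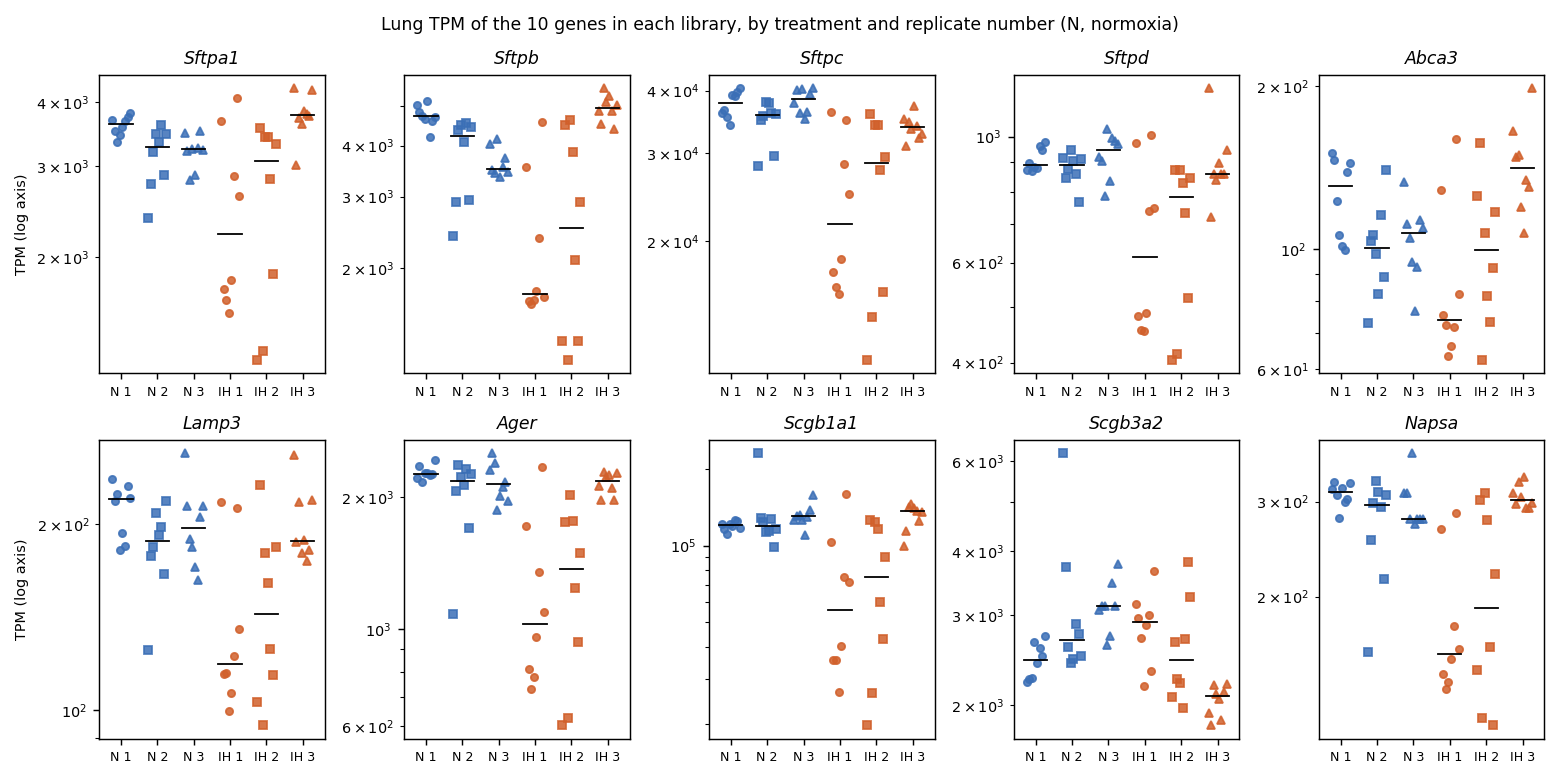
TPM (vertical axes, log scale) of each gene in the 48 lung libraries, grouped on the horizontal axis by treatment (N, normoxia) and replicate number; each point is a library and each bar the median of 8. IH replicates 1 and 2 spread widely, as for Scgb1a1 from 19780 to 159173 TPM, and 1 library of normoxia replicate 2 stands far above the others for Scgb1a1 and Scgb3a2. IH replicate 3 lies wholly above the normoxic libraries of its number for Sftpb and wholly below them for Scgb3a2.

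Among the surfactant proteins, Sftpc ran from 28353 to 40467 TPM in normoxia (median 36427) and from 11606 to 37308 TPM (median 31548) after IH. The groups overlapped, but 9 of 24 IH libraries lay below the lowest normoxic library and 1 lay above the normoxic median. SP-C is the usual marker of alveolar type 2 cells. Its log2 change was -0.79 (SE 0.13, limma adjusted p = 1.17e-06), lower at 8 of 8 times.

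Sftpb ranged from 2395 to 5153 TPM in normoxia (median 4176) and from 1194 to 5529 TPM after IH (median 3700). The IH group therefore held both the lowest and the highest libraries; 10 of 24 lay below all normoxic libraries and 11 lay above the normoxic median. Its change was -0.74 (SE 0.17, adjusted p = 1.64e-04, limma). SP-B is the surfactant protein without which newborn mice cannot breathe.

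Of the collectins, Sftpa1 held 2380 to 3819 TPM in normoxia (median 3401) and 1260 to 4262 TPM after IH (median 3369), so that the medians were close while 7 IH libraries lay below the normoxic range. Its change of -0.55 (SE 0.13, adjusted p = 1.50e-04, limma) did not reach 1.5-fold. Sftpd ran from 767 to 1031 TPM in normoxia (median 906) and from 404 to 1217 TPM after IH (median 833), with 11 of 24 IH libraries below the normoxic range. Its change was -0.63 (SE 0.10, adjusted p = 6.94e-07, limma). The SD of Sftpd was 3.39 times larger after IH than in normoxia, and for Sftpa1 it was 2.81 times larger.

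Of the genes that pack and process surfactant, Lamp3, a membrane protein of lamellar bodies, held 125 to 260 TPM in normoxia (median 196) and 94.5 to 259 TPM after IH (median 177). 8 IH libraries lay below the normoxic range and 6 above its median, and the change was -0.63 (SE 0.10, adjusted p = 3.46e-07, limma). Napsa, whose protease helps trim the precursor of SP-B, held 158 to 369 TPM in normoxia (median 301) and 116 to 333 TPM after IH (median 272). 7 IH libraries lay below the normoxic range, and the change was -0.71 (SE 0.12, adjusted p = 1.41e-06, limma). Abca3 held 73.1 to 150 TPM in normoxia (median 106) and 62.3 to 198 TPM after IH (median 112), and its mean TPM was 110 and 112. Its scaled change of -0.34 (SE 0.11, adjusted p = 0.00491, limma) came with a TPM mean that was lower after IH at 4 of 8 times, and on TPM as deposited the change was -0.04.

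Ager, the receptor that marks alveolar type 1 cells, held 1084 to 2516 TPM in normoxia (median 2234) and 604 to 2348 TPM after IH (median 1739). 7 IH libraries lay below the normoxic range and 4 above its median. The lowest normoxic library was again replicate 2 at 1:30 h; without it, left out after seeing the data, the lowest was 1702 TPM and 11 IH libraries lay below. The change was -0.88 (SE 0.15, adjusted p = 7.34e-07, limma), and mean TPM was lower after IH at 8 of 8 times.

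Of the club cell members, Scgb1a1 held 98845 to 229994 TPM in normoxia (median 124476) and 19780 to 159173 TPM after IH (median 101468), with 11 of 24 IH libraries below the normoxic range. Secretoglobin 1A1 is the most abundant protein of club cell secretion. Its change was -1.01 (SE 0.22, adjusted p = 9.69e-05, limma), a 2.01-fold fall, and -0.70 on TPM as deposited (adjusted p = 0.00213). Scgb3a2, also a secretoglobin gene (chr18:43764289-43767399, + strand), held 2214 to 6216 TPM in normoxia (median 2693) and 1826 to 3807 TPM after IH (median 2228), and 12 of 24 IH libraries lay below the normoxic range. Its change was -0.52 (SE 0.10, adjusted p = 1.77e-05, limma), short of 1.5-fold. The SD of Scgb3a2 after IH was 0.686 times that in normoxia, and for the other members it was 1.70 to 3.39 times that in normoxia. The smaller value rested on normoxia replicate 2 at 1:30 h: without that library, left out after seeing the data, the normoxic SD of Scgb3a2 was 444 in place of 825 TPM and the ratio 1.27, beside 1.82 to 3.91 for the other members. Without the lung library of each treatment that correlated least with the rest, which were replicate 2 at 1:30 h in both, 6 of 10 members were changed and 10 of 10 passed the adjusted p. Of all genes 475 were then changed and lower, against 677 with all libraries. The share of all genes past the adjusted p alone is not given here for that fit. This alternative was chosen after seeing the data.

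The replicate numbers split these falls. Within replicate 1 alone (8 libraries against 8), 9 members were changed and lower, where 11.3% of all genes were, and within replicate 2 alone 9 members were, where 10.1% of all genes were. Within replicate 3 alone the count was 1, where 7.25% of all genes were, and that member was Scgb3a2; at an adjusted p of 0.05 alone 7 members were lower there, where 32.6% of all genes were. Its change was -0.94 (SE 0.08, limma adjusted p = 2.69e-08) in replicate 3, with 1826 to 2194 TPM after IH and 2624 to 3772 TPM in normoxia, groups that did not overlap. In replicate 1 the same gene had a change of -0.01 (SE 0.11, adjusted p = 0.930). Scgb3a2 thus changed most in replicate 3, where the other members changed least, although the difference between replicate numbers was not tested. Scgb1a1 changed by -1.28 (SE 0.35) in replicate 1, -1.44 (SE 0.47) in replicate 2 and -0.35 (SE 0.14) in replicate 3. Ager changed by -1.23, -1.12 and -0.33, and Napsa by -1.04, -0.86 and -0.27. These are changes of scaled values, and the mean scale factor of replicate 3 was 0.888 in normoxia and 1.11 after IH. Mean TPM in replicate 3 moved little, from 131422 to 130001 for Scgb1a1, 2166 to 2146 for Ager and 297 to 307 for Napsa. For Sftpc it went from 38197 to 33815 TPM and for Scgb3a2 from 3129 to 2036 TPM. Sftpb gave -1.33 and -1.03 in replicates 1 and 2 but 0.12 (SE 0.06, adjusted p = 0.128, limma) in replicate 3, where its TPM ran from 4398 to 5529 after IH, above all normoxic libraries of that number (3354 to 4156). Abca3 gave -0.76, -0.42 and 0.13. Sftpc stayed lower in each, at -0.94, -0.96 and -0.50. What the replicate numbers stand for is not stated, and their part in the result was not tested.

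When the log2 count of detected genes was added to the fit, 9 of 10 members changed sign. Sftpa1 (0.36, SE 0.10, adjusted p = 0.00303) and Sftpb (0.52, SE 0.13, adjusted p = 9.82e-04, limma) were then higher after IH, where 27.4% of all genes were higher at an adjusted p of 0.05. Scgb3a2 was the member that stayed lower, at -0.89 (SE 0.15, adjusted p = 2.05e-06), where 25.1% of all genes were. The other 7 members, such as Sftpc (0.04, SE 0.13), did not pass. The number of genes detected itself differed by treatment, so the effects of IH and of this measure cannot be told apart.

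**Figure D4:**
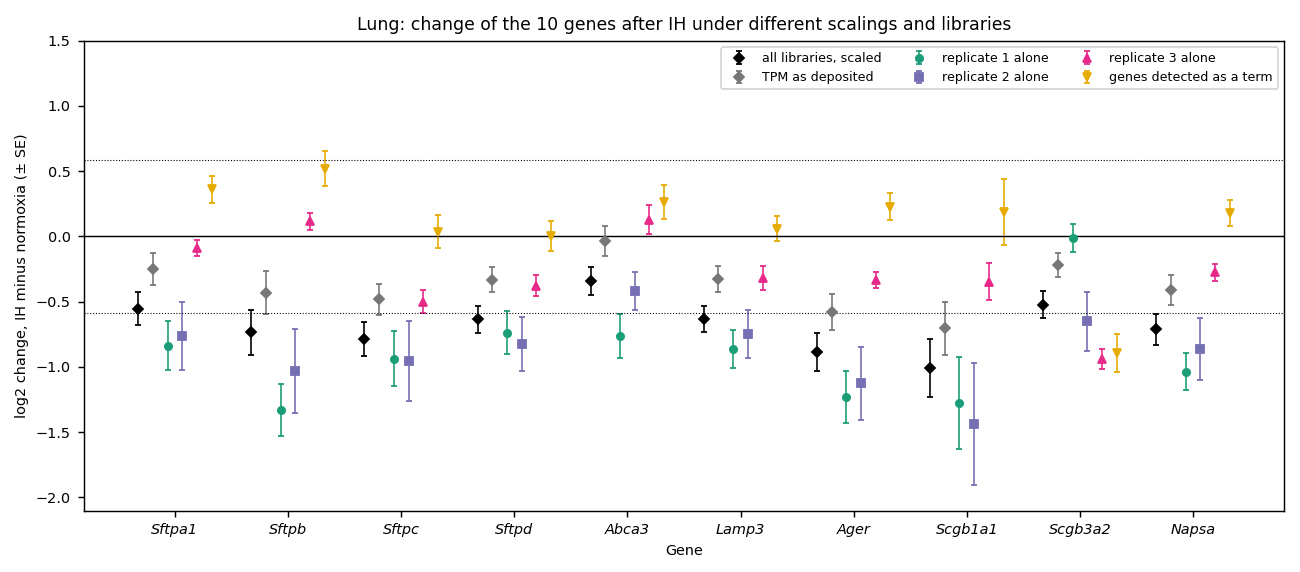
Log2 change after IH (vertical axis, IH minus normoxia, bars are SE) of each gene in the lung (horizontal axis), with symbols for all 48 libraries scaled, TPM as deposited, each replicate number alone and the genes detected as a term; dotted lines mark 1.5-fold. The falls of replicates 1 and 2 are absent or smaller in replicate 3 for all genes but Scgb3a2 (-0.94), and with genes detected as a term Sftpb lies at 0.52.

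Other genes of the same cells fell along with the members, counted here where 41.5% of all genes were lower at an adjusted p of 0.05 and 4.39% were changed and lower. Of 18 further alveolar type 2 genes tested, 17 were lower and 4 were changed, and their median change was -0.40, beside -0.67 for the members and -0.08 for all genes. Muc1, a membrane mucin, changed by -0.82 (SE 0.12), Egfl6 by -0.92 (SE 0.14) and the most abundant, the lung chemokine Cxcl15, by -0.65 (SE 0.17). Of 14 alveolar type 1 genes 11 were lower and 2 higher, with 6 changed and lower. Hopx, a homeodomain protein and the most abundant of them, fell by 0.61 (SE 0.06) on the log2 scale, Igfbp2 by 1.08 (SE 0.13) and Gprc5a by 0.97 (SE 0.17). Of 12 club and airway secretory genes tested out of 13, all 12 were lower and 10 changed, with a median of -0.76. Among these were Bpifb1 (-1.57, SE 0.23) and Bpifa1 (-1.11, SE 0.24), secreted proteins of airway defence, whereas Cbr2, the most abundant, did not reach 1.5-fold (-0.48, SE 0.13). All 12 ciliated cell genes were lower and 5 changed, including Ccdc113 (-0.68, SE 0.14) and Dynlrb2 (-0.66, SE 0.14), whereas Sec14l3, the most abundant, had a change of -0.27 (SE 0.09), and 0.039 on TPM as deposited. Of 14 pan-epithelial genes 12 were lower and 10 changed. Epcam, an adhesion molecule of epithelia, had a change of -0.91 (SE 0.14) and Spint2 of -0.77 (SE 0.12), and Esrp2 was the exception at 0.83 (SE 0.08). In replicates 1 and 2 the summed TPM of the pan-epithelial genes ran from 517 to 1568 after IH and from 1111 to 1715 in normoxia. In replicate 3 it ran from 1251 to 1556 after IH and from 1289 to 1537 in normoxia. These counts too depended on the fit. On TPM as deposited the genes lower at an adjusted p of 0.05 numbered 4 of the type 2, 5 of the type 1, 10 of the club, 6 of the ciliated and 10 of the pan-epithelial genes, where 10.7% of all genes were lower, and with genes detected as a term 1, 1, 2, 1 and 0, where 25.1% were. With that term 9 of the type 1 genes, 5 of the type 2, 1 of the ciliated and 1 of the pan-epithelial genes were higher, where 27.4% of all genes were, and of the genes named here Gprc5a (0.30), Sec14l3 (0.30), Bpifa1 (0.091) and Egfl6 (0.077) turned.

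Further lists covered the machinery around the surfactant members. At an adjusted p of 0.05 41.5% of all genes were lower and 28.9% higher (4.39% and 9.09% changed), and with genes detected as a term 25.1% and 27.4%; the counts of the lipid and processing lists were near these shares on scaled values. Of 19 genes of surfactant phospholipid synthesis, 4 were higher and 7 lower, and their median of -0.09 was near that of all genes, as was the 0.21 on TPM as deposited. The counts changed with the fit, to 10 higher and 1 lower on TPM as deposited, where 55% of all genes were higher at an adjusted p of 0.05, and to 8 higher and 2 lower with genes detected as a term. Chka, which starts the choline branch, changed by 0.74 (SE 0.08), Fasn, the fatty acid synthase, by -0.80 (SE 0.17), and the desaturase Scd1, the most abundant, by -0.55 (SE 0.20, adjusted p = 0.0161, limma), which is not past 1.5-fold. Both of these turned with genes detected as a term (0.32 for Fasn and 0.66 for Scd1) and within replicate 3 alone (0.059 and 0.33). Of 16 genes of protein processing, lamellar bodies, secretion and turnover, 5 were higher and 7 lower, with 2 changed and higher and 1 changed and lower (median -0.17, and 0.14 on TPM as deposited). There, too, the counts moved, to 7 higher and 4 lower on TPM as deposited and to 8 higher and 1 lower with genes detected as a term. The changed and higher genes were the receptor subunits Csf2ra (1.02, SE 0.09) and Csf2rb (0.70, SE 0.08), through which macrophages are driven to clear surfactant. Adgrf5, a receptor that limits the surfactant pool, did not pass (-0.19, SE 0.13). Of 17 transcription factors of the lung epithelium tested out of 18, 11 were lower and 0 higher, with Elf3 (-0.71, SE 0.13) and Sox2 (-0.66, SE 0.13) changed. Limma gave 6 higher and 3 lower on TPM as deposited, and 8 higher and 2 lower with genes detected as a term. Nkx2-1, the most abundant, had a change of -0.06 (SE 0.05, adjusted p = 0.277) on scaled values and 0.25 (adjusted p = 1.32e-05, limma) on TPM as deposited. Of 6 other secretoglobin and collectin genes tested out of 8, 2 were higher and 3 lower, and Scgb3a1, the most abundant, had a value of -0.29 (SE 0.12), against 0.01 on TPM as deposited.

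Markers of other cells of the lung moved as well, counted here at an adjusted p of 0.05, where 41.5% of all genes were lower and 28.9% higher. All 12 endothelial markers were lower and 5 were changed, among them Vwf (-0.91, SE 0.12), Cdh5 (-0.77, SE 0.14) and Cldn5 (-0.70, SE 0.09), and their summed TPM averaged 2821 ± 322 in normoxia and 2368 ± 332 after IH. Of 10 alveolar macrophage markers 5 were higher and 0 lower, the sum going from 663 ± 200 to 1134 ± 633 TPM, with Chil3 the most abundant (0.87, SE 0.21) and Siglecf at 0.73 (SE 0.12). IH replicate 3 at 1:30 h held 3939 TPM of these markers, and without it, left out after seeing the data, the sum after IH was 1012 ± 213 TPM. Of 8 cardiomyocyte markers 4 were higher and 0 lower (sum 548 ± 167 and 870 ± 244 TPM). Myl7, the most abundant of them, did not pass. In the counts that follow the most abundant marker of each list is in brackets. Fibroblast markers were lower in 5 and higher in 1 of 10 (Inmt, which was lower). Smooth muscle markers were lower in 5 of 6 (Tagln), T and NK cell markers in 7 of 9 (Gzma), and B cell markers in 5 of 6 (Ighm). Red cell markers were lower in 5 of 5 (Hbb-bs), mesothelial markers lower in 4 of 4 (Msln), neutrophil markers higher in 1 of 5 (S100a9, which did not pass), skeletal muscle markers higher in 1 of 4 (Ckm), cerebellum markers lower in 1 of 1 (Mbp), and of 4 liver markers 0 passed (Cyp2e1). These counts depended on the fit, as did the shares of all genes at an adjusted p of 0.05. On TPM as deposited 10.7% of all genes were lower and 55% higher, and with genes detected as a term 25.1% and 27.4%. On TPM as deposited 6 of the endothelial, 1 of the smooth muscle, 3 of the T and NK cell, 2 of the B cell, 3 of the red cell and 3 of the mesothelial markers were lower, fibroblast markers were lower in 2 and higher in 2, and 9 macrophage, 7 cardiomyocyte, 3 skeletal muscle and 2 neutrophil markers were higher. With genes detected as a term the endothelial markers were lower in 3 and higher in 2, Cdh5 turning to 0.30, 5 fibroblast and 3 smooth muscle markers were higher, and 9 macrophage and 6 cardiomyocyte markers were higher. 7 T and NK cell, 5 B cell, 5 red cell and 2 neutrophil markers and 1 mesothelial marker were then lower, and 1 skeletal muscle marker was higher. The thymus and thyroid markers and the kidney markers had 0 genes at a mean of 1 TPM, with sums of at most 3.64 and 3.69 TPM in any lung library. Sums of the liver markers reached 726 TPM after IH and 67.4 TPM in normoxia. Those of the skeletal muscle markers reached 804 and 467 TPM. The part of these cells in the members' changes was not tested.

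Over the 24 normoxic lung libraries, the genes whose log2 level followed the members of each cell type most closely were sought among 11688 genes, as a description. For the type 2 members the highest r belonged to Slc34a2 (0.764), a phosphate transporter of type 2 cells, which had an r of 0.939 over the 24 IH libraries. Armc5 (0.723), Mindy4 (0.722), Mvp (0.712) and Fam234a (0.709) came next, and over the IH libraries Mindy4 had an r of -0.242. For Ager they were Rab12 (0.893), Pdpn (0.892), Actr1a (0.829), Icam1 (0.827) and Slc44a2 (0.822). Pdpn, a type 1 cell protein, kept an r of 0.977 over the IH libraries, against 0.283 for Rab12. Part of the likeness to Ager rested on normoxia replicate 2 at 1:30 h: without that library (n = 23) r was 0.470 for Actr1a, 0.422 for Icam1 and 0.740 for Pdpn. The club members were followed by 1700016K19Rik (0.984), Ccdc113 (0.982), Ttc25 (0.979), Tekt1 (0.978) and Bphl (0.974), and without that library r was still 0.932 to 0.958. All these values share libraries, and a library's tissue make-up enters each of them.

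Over the day 1 of 10 members, Abca3, passed the test of a 24-hour rhythm in the normoxic lung, where 9.15% of all genes did, a share near the background. Its TPM averaged 131 at 22:30 h and 120 at 4:30 h, and 86.9 at 13:30 h (n = 3 each). The fitted 24-hour rhythm had an amplitude of 0.22 on the log2 scale (SE 0.05) and a peak at 0:50 h (adjusted p = 0.0112, limma F test), and a rank test against cosine orders gave an adjusted p of 0.0304. The call was lost on TPM as deposited (adjusted p = 0.198), without replicate 1 (0.163) and without replicate 3 (0.243). After IH 0 members passed by limma and 0 by the rank test, 0 had an unadjusted p under 0.05, and 4.65% of all genes passed by limma. Abca3 after IH had an amplitude of 0.28 (SE 0.13, adjusted p = 0.465) and a fitted peak at 0:11 h, with mean TPM of 140 at 1:30 h, 133 at 22:30 h and 84.9 at 13:30 h. Its lowest mean thus came at 13:30 h in both treatments, and its highest at 22:30 h in normoxia and at 1:30 h after IH. The test of a change of rhythm between treatments gave 0 members and 0 genes (0%) by limma. At an unadjusted p of 0.05 it gave 289 of 15426 genes, a share under that cutoff, and 0 of 10 members. The 0 is therefore no result about the members. Amplitudes of the remaining members in normoxia ran from 0.02 (Sftpc, SE 0.05) to 0.17 (Scgb3a2, SE 0.11). The means of Scgb3a2 by time ran from 2531 TPM at 13:30 h to 3834 TPM at 1:30 h, the time of the library that stood apart.

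In the other tissues, 19 tests of members could be made at a mean of 1 TPM, and 1 was changed, Napsa in liver. The share of all genes changed was 3.65% in liver, 2.64% in cerebellum, 2.95% in heart, 0.783% in kidney and 0.374% in muscle. In kidney, where Napsa is highest, its change after IH was -0.01 (SE 0.09, adjusted p = 0.972, limma) and that of Abca3 was 0.14 (SE 0.11, adjusted p = 0.409). In heart Abca3 was 0.14 higher (SE 0.05, adjusted p = 0.0210, limma), short of 1.5-fold, where 45.2% of all genes passed the adjusted p alone. Scgb1a1 and Sftpc in heart had changes of -0.94 (SE 0.93) and -0.90 (SE 0.45), with adjusted p of 0.425 and 0.0969 (limma). Their normoxic means of 188 and 8.68 TPM in heart stood far above medians of 0.511 and 0.0331 TPM. So did that of Scgb3a2, at 47.2 against 0.0859 TPM. A few libraries carried these means, so the tests say nothing of a response in heart. Of the 48 heart libraries, 7 held at least 10 TPM of Scgb1a1 or Sftpc. In muscle and cerebellum the tested members did not pass either, with Abca3 at -0.05 (SE 0.05) and 0.03 (SE 0.08). Scgb1a1 and Sftpc in muscle had normoxic means of 12.3 and 3.85 TPM beside medians of 0.664 and 0.169 TPM, likewise carried by few libraries.

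Liver Napsa was low but higher after IH, from 1.71 to 10.7 TPM (median 2.67) against 0.471 to 3.76 TPM in normoxia (median 0.875). The groups overlapped, and its change was 1.09 (SE 0.17, adjusted p = 1.30e-05, limma). The kidney gene Kap moved with it, from 32.8 to 370 TPM after IH and from 0.387 to 103 TPM in normoxia. All 3 kidney markers tested in liver were changed and higher, Kap by 3.88 (SE 0.45), the phosphate transporter gene Slc34a1 by 2.13 (SE 0.26) and the tubule gene Umod by 1.88 (SE 0.24). The summed kidney markers ran from 37.2 to 405 TPM after IH and from 0.577 to 112 TPM in normoxia. In the kidney itself Kap averaged 46286 TPM beside 1072 TPM of Napsa. By replicate number liver Napsa changed by 1.52 (SE 0.11), 1.40 (SE 0.33) and 0.28 (SE 0.26, adjusted p = 0.840, limma). In normoxia, replicates 1 and 2 held 0.471 to 1.49 TPM of Napsa and 0.387 to 6.99 TPM of Kap, whereas replicate 3 reached 3.76 and 103 TPM. IH replicate 2 at 13:30 h was the highest library for both. The next highest values after IH were 3.46 TPM of Napsa, 112 TPM of Kap and 120 TPM of the summed kidney markers. The part of kidney RNA in the Napsa value was not tested.

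**Figure D5:**
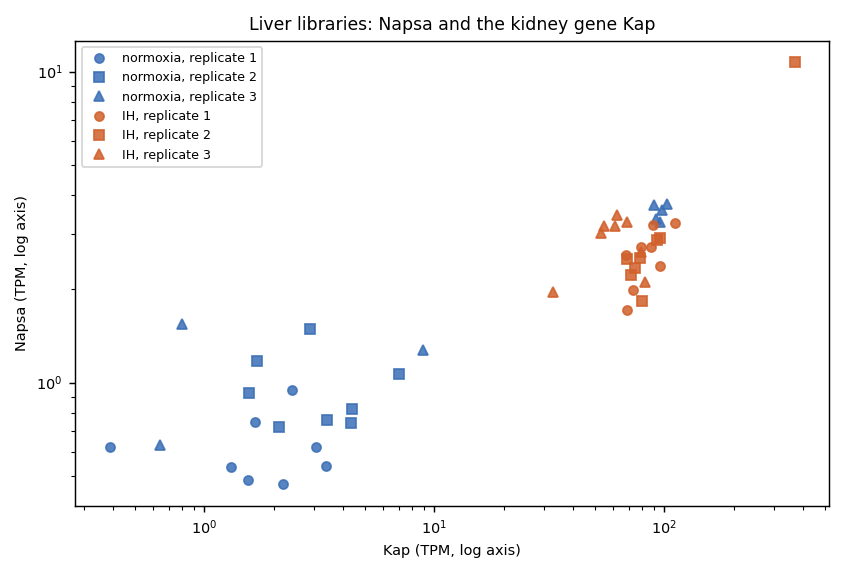
Napsa TPM (vertical axis, log scale) against TPM of the kidney gene Kap (horizontal axis, log scale) in the 48 liver libraries; each point is a library, colour marks treatment and shape the replicate number. 5 normoxic libraries, all of replicate 3, hold 90.4 to 103 TPM of Kap and 3.29 to 3.76 TPM of Napsa, among the IH libraries, and the highest point is IH replicate 2 at 13:30 h (370 and 10.7 TPM).

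Interaction terms compared the IH response of each member in lung with its response elsewhere, and 12 of 19 passed at an adjusted p of 0.05. The share of all genes passing was 49.8% against cerebellum, 65.2% against heart, 63.2% against kidney, 52.6% against liver and 56.8% against muscle, so a pass was common. Napsa passed against all 5 tissues, and Abca3 against all but liver. Scgb1a1 did not pass against cerebellum, heart or muscle, where its SE was 0.40 to 0.96. In heart and muscle a few libraries carried the means of Scgb1a1 and Sftpc, and in heart that of Scgb3a2. Those interaction tests say nothing of a response there. The test of Scgb1a1 against liver is another such case. The pass of Scgb1a1 against liver says nothing of a response there: it was tested only because 2 IH liver libraries (54.8 and 11.03 TPM, replicate 2 at 13:30 and 7:30 h) lifted its mean over 1 TPM, the normoxic mean being 0.236 TPM and the IH median 0.124 TPM. On TPM as deposited 4 of the 19 passed, Napsa against kidney, liver and muscle and that of Scgb1a1 against liver. The share of all genes passing on that scale is not given here, so this count is no result about the members.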

How the data were processed

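Poly(A) RNA of 288 libraries (6 tissues, 48 each) was sequenced from stranded libraries. Per the submitters' processing notes and the study's methods, the authors checked reads with FastQC 0.11.3 and quantified Ensembl transcripts with kallisto, version not given in the sources used here. The deposited values are TPM per gene, summing to between 989211 and 999188 per library. The authors tested mean expression with DESeq2 on estimated counts, which were not analysed here, so a test that fits TPM replaced it. Depth is unknown from TPM, and no interval for counting error is given. No 2 libraries held identical values.

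TPM were scaled per library and tissue by the median of ratios, 0.5 was added, and log2 values were fitted with limma 3.58.1 (R 4.3.3; Python 3.11.15, pandas 2.3.3, numpy 2.4.6 and matplotlib 3.10.9 for tables and plots). Fold changes are on this scale, which understates those of low genes. Genes averaging 1 TPM or more in a tissue were tested, intensity trend included, with Benjamini-Hochberg adjustment over all genes tested. Changed means an adjusted p of at most 0.05 and a fold change of at least 1.5. Response differences between tissues were interaction terms, with both tissues in 1 fit although mice gave several organs. Rhythms were cosine and sine terms of 24 h with a moderated F test. The steps were tested on simulated data.

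Alternatives were TPM as deposited, quantile normalization, pseudocounts of 0.1 and 1, a minimum of 5 TPM or none, time, replicate number or genes detected as terms, leaving out or keeping each replicate number, leaving out each time, no intensity trend, 100000 permutations of treatment within times, a rank test and a linear scale for rhythms. Leaving out the library of each treatment with the lowest median correlation to its tissue, and single libraries from the SD of Scgb3a2, the tissue folds, the Ager range and the macrophage marker sum, was added after seeing the data.

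Named genes were the 10 members; in each gene list up to 4 of those changed with a mean of at least 5 TPM (the 2 largest rises and the 2 largest falls) and the most abundant; and the 5 genes with the highest Pearson r to the members of each cell type over normoxic lung libraries. Markers other than those of endothelium and macrophages are given by counts and the most abundant gene, a restriction made after their values were seen, and 1 gene that the rule names is not reported here. Members and lists were chosen with earlier results of these data known. Gene positions are from the GENCODE annotation of GRCm38, and promoters from RefSeq (GRCm38.p6); those of the other 5 members, and proteins, were not used here.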

Additional observations from a re-analysis of the deposited data

Results flagged for a closer look

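The response of a member to IH differed between lung and another tissue in 12 of 19 tests of the interaction, each given as the lung log2 change minus that of the other tissue with its limma adjusted p. Between 49.8% and 65.2% of all genes passed in these comparisons, so the count is near the background and is no result about the members. Napsa differed by -1.80 from liver (adjusted p = 1.09e-10), -0.75 from cerebellum (6.55e-04), -0.73 from muscle (6.94e-05), -0.71 from kidney (5.77e-05) and -0.46 from heart (0.0158). Liver Napsa moved with kidney markers, as described above, and their part in the difference was not tested. Abca3 differed by -0.48 from heart (adjusted p = 3.11e-04), -0.48 from kidney (0.00683), -0.37 from cerebellum (0.0189) and -0.28 from muscle (0.0366). Sftpc differed by -0.65 from cerebellum (7.37e-04) and Sftpd by -0.61 from liver (6.56e-05), at low levels outside the lung (normoxic means of 1.60 TPM of Sftpc in cerebellum and 1.13 TPM of Sftpd in liver). The value for Scgb1a1 against liver, -1.60 (9.95e-04), says nothing of a difference in response: 2 IH liver libraries (54.8 and 11.03 TPM) alone lifted the gene over the minimum of 1 TPM, beside a normoxic mean of 0.236 TPM and an IH median of 0.124 TPM.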

How the results depend on the processing

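Depth cannot be read from TPM, so it sets no stated limit here, and the lung falls were largest in IH replicates 1 and 2 for all members but Scgb3a2. All 10 members kept their lower direction in the lung and 7 stayed changed with pseudocounts of 0.1 and 1, a minimum of 5 TPM, time as a term, no intensity trend, and without any time but 13:30 h, where 8 were changed. The replicate number as a block left 7 changed and 10 past the adjusted p. A check of pairing by like number and time gave r from -0.415 to 0.336 over 24 pairs, 5 of them over 0.1. These are not correlations of whole libraries, since each lung library had a median r of at least 0.951 with its tissue. The check gave no sign of pairs. It does not settle whether libraries of like number share a day or batch, which was not tested. The block changed no call of a member, and it moved the rhythmic genes among all genes from 1411 to 2174 in normoxia and from 717 to 1206 after IH. Members changed in the lung numbered 1 on TPM as deposited, 5 with no filter (8 past the adjusted p), 0 with quantile normalization (6 past the adjusted p), 1 with genes detected as a term (3 past the adjusted p), 1 within replicate 3 alone, 0 in permutations of mean TPM (7 at a p of 0.05; Abca3 gave 0.019, p = 0.858), and 5 to 8 without a replicate. Where the share of all genes past the adjusted p alone is not given for a fit, the count of members past it is no result about them. The cause was not tested in any of these.

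With genes detected as a term the log2 changes that turned were those of Sftpa1 (0.36), Sftpb (0.52), Sftpc (0.036), Sftpd (0.0046), Abca3 (0.26), Lamp3 (0.060), Ager (0.23), Scgb1a1 (0.19), Napsa (0.18), Egfl6 (0.077), Gprc5a (0.30), Bpifa1 (0.091), Sec14l3 (0.30), Fasn (0.32), Scd1 (0.66), Adgrf5 (0.66), Nkx2-1 (0.055) and Cdh5 (0.30). On TPM as deposited Sec14l3 (0.039), Adgrf5 (0.12), Nkx2-1 (0.25) and Scgb3a1 (0.010) turned, and with quantile normalization the same genes did (0.17, 0.22, 0.23 and 0.12). Within replicate 3 alone Sftpb (0.12), Abca3 (0.13), Sec14l3 (0.18), Fasn (0.059), Scd1 (0.33), Adgrf5 (0.57) and Nkx2-1 (0.0080) turned, within replicate 1 alone Scgb3a1 (0.032), and without replicate 1 Adgrf5 (0.17, and -0.57 without replicate 3). The SD of Scgb3a2 after IH was 1.275 times that in normoxia without normoxia replicate 2 at 1:30 h, and 0.6861 times with it. The cause was not tested.

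Members changed in the other tissues numbered 0 at a minimum of 5 TPM, where fewer genes are tested, and 0 to 3 without a replicate. Differences from another tissue numbered 4 on TPM as deposited, 4 at a minimum of 5 TPM and 7 to 14 without a replicate. The shares of all genes passing in these fits are not given here. Scgb1a1 against liver could not be tested without replicate 2 or without the least correlated libraries, its liver mean then being under 1 TPM. Rhythms in normoxia numbered 0 on TPM as deposited, 0 to 2 without a replicate, and 2 without the least correlated library of each treatment, an alternative chosen after seeing the data. The cause was not tested.

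Among all lung genes, 677 were changed and lower and 1402 changed and higher. The lower count was 58 on TPM as deposited, 383 to 1470 without a replicate, and 1742, 1589 and 1090 within replicates 1, 2 and 3. The higher count was 2908 on TPM as deposited, 591 at a minimum of 5 TPM, 2402 with no filter, 706 with genes detected as a term and 815 within replicate 3. Rhythmic genes in normoxia numbered 679 on TPM as deposited, 832 by the rank test and 222 to 783 without a replicate, and after IH 373 by the rank test and 98 to 254 without a replicate.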
